A study of Mus musculus with 12 samples.

Results

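Kinesins are motor proteins that use ATP to move along microtubules or to take them apart, and the genes examined here are all those in the count table whose symbol begins with Kif and a number. There were 38 of them among 23337 gene symbols. By known role they comprised 12 mitotic kinesins, 13 transport kinesins, 6 kinesins of cilia, 6 with other roles and 1 pseudogene (Kif4-ps). A low-count filter that kept 12406 genes of the table kept 36 of the 38. Kif2b and Kif4-ps were left out, with 0 counts in all 12 libraries, where 3 counts would have equalled 0.136 to 0.207 CPM (counts divided by the size of the library and put on a common scale).

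The cells were NU1, normal mouse urothelial cells that became immortal without an added oncogene. RNA was sequenced from 4 groups of 3 libraries, 1 per group in each of experiments 5, 7 and 9. Proliferating control cells carried the non-targeting hairpin shNT (labelled WT), and proliferating knockdown cells carried sh4, a lentiviral hairpin against Stag2 (labelled Stag2-KD). Quiescent control and quiescent knockdown cells carried the same hairpins, had grown to confluence and then received 1 µM rosiglitazone, an agonist of PPAR gamma, and 0.5 µM erlotinib, an inhibitor of the EGF receptor kinase, and were labelled day 7. All groups were therefore of 1 cell line, and the knockdown rests on 1 hairpin. The labels give no drug for the proliferating groups, so confluence, drugs and time cannot be told apart in the comparison of states. STAG2 is one of the alternative STAG subunits of cohesin, which tethers sister chromatids and organises chromatin into loops.

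Library totals ran from 14524429 to 21987539 counts. Stag2 itself was at 139, 145 and 113 CPM in proliferating control cells of experiments 5, 7 and 9, and at 33.3, 24.9 and 24.6 CPM in proliferating knockdown cells. In quiescent cells it was at 128, 126 and 107 CPM with the control hairpin and at 9.43, 15.3 and 11.7 CPM with sh4, so every knockdown library lay below every control library. The summed level of 17 urothelial markers was 12200 to 17600 CPM in proliferating control, 14300 to 16500 in proliferating knockdown, 12200 to 19000 in quiescent control and 21200 to 22900 in quiescent knockdown libraries. Most of this sum came from the keratins Krt7, Krt8, Krt18 and Krt19, so it says little about the other markers. Trp63, the basal urothelial factor, was at 0 in every library, whereas the epithelial keratin Krt8 was at 3493 to 9042 CPM. Of 14 markers tested with edgeR as below, 1 was called higher and 2 lower in quiescent control cells, against 8.33% and 11.7% of all genes. These were Gata3 (log2 fold change 1.47 ± 0.40) and the keratins Krt14 (-4.16 ± 0.56) and Krt5 (-2.03 ± 0.48, SE each). The uroplakins, which coat mature umbrella cells, were low, with Upk1a at 0.689 to 3.94 CPM. Upk3b was at 0.466 to 3.58 CPM in the other groups and at 3.76, 3.34 and 8.91 CPM in quiescent knockdown cells, and the part of these markers in the kinesin results was not tested. Markers of 15 genes for fibroblasts, mural cells, endothelium, immune cells and neurons summed to 3.99 to 12.9 CPM. The immune marker Cd68 was the highest of them in every library, at 1.55 to 9.36 CPM, and Pdgfra and Tubb3 also passed the low-count filter. Col1a2 and Col3a1 were at 0 in all 12 libraries.

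Mitotic kinesins build and position the spindle, move chromosomes along it and split the daughter cells at its end, and a cell makes most of them only as it nears division. Transport kinesins carry vesicles, endosomes, mitochondria and mRNA towards the plus ends of microtubules and are used by dividing and resting cells alike. Many genes of the G2 and M phases carry in their promoters a short element called the CHR, the cell cycle genes homology region, often with CCAAT boxes that bind the factor NF-Y. The CHR is the site through which the DREAM complex represses such genes in resting cells, and the series takes its title from STAG2 and DREAM in urothelial quiescence.

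Promoter windows of 300 bases, from 250 before to 50 after the start site, were given by RefSeq (build GRCm38.p6) for 31 of the 38 kinesin genes. The letters searched on both strands were TTTGAA for the CHR (TTCAAA on the opposite strand) and CCAAT for the NF-Y box (ATTGG on the opposite strand), and these 2 do not overlap in letters. Among 10 mitotic kinesins that were tested for expression and had a window, 9 held a CHR match. Kif2b, which had no counts, lacked it, so that over all mitotic windows the share was 9 of 11 (81.8%). Of 12 transport windows, from 10 genes, 1 held it, and 17.9% of all 32851 RefSeq windows did. Within 50 bases of the start site, a span chosen after the matches were seen, 7 of the 10 mitotic windows held it (7 of 11 with Kif2b), 1 of the 12 transport windows, and 4.94% of all windows. The CCAAT box was less marked, in 6 of the 10 mitotic and 4 of the 12 transport windows against 37.4% of all windows. A match is a description of letters, not of a bound site.

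The stretches of 30 bases around the CHR matches nearest to the start site show how the element sits in these promoters. Each is printed 5′ to 3′ in the direction of the gene, with the CHR letters in capitals, and the number given is the position of the first capital counted from the start site, where the first transcribed base is 1. Kif20b held the match 2 times in a row.
Kif11, chr19:37376351-37376380 (+), position -19: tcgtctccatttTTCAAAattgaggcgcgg
Kif15, chr9:122951050-122951079 (+), position -19: tggggcgccaaaTTCAAAtctgcggccatc
Kif22, chr7:127042420-127042449 (-), position -17: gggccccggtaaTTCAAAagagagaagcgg
Kif23, chr9:61946780-61946809 (-), position 3: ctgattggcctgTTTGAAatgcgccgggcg
Kif18b, chr11:102925104-102925133 (-), position 4: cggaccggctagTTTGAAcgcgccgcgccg
Kif20b, chr19:34922353-34922382 (+), position 8: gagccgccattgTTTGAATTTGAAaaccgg
Kif4, chrX:100626072-100626101 (+), position 20: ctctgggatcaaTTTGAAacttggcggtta
Kif2c, chr4:117178858-117178887 (-), position -103: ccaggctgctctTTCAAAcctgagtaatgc
Kif14, chr1:136467608-136467637 (+), position -228: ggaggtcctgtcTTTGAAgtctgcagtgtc

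Kif2c and Kif14, with the 2 matches far from the start, have RefSeq start sites that lie downstream of the first base of the gene in GENCODE M21. The same is true, by a smaller distance, of Kif4, Kif15 and Kif22, whose printed matches lie near the start. The Kif2c window is chr4:117178723-117179022 (-), in a gene that begins at 117182639. That of Kif14 is chr1:136467598-136467897 (+), in a gene that begins at 136466343, so both windows lie wholly inside the GENCODE gene, as does that of Kif4. Longer stretches of 120 bases, ending at the base before the start site, contrast 4 promoters, with CHR and CCAAT letters in capitals. Kif11 shows the NF-Y box upstream of the CHR, at position -45. Kif18a is the tested mitotic kinesin with a window but without a match, Kif1c is the transport kinesin with the highest expression per length, and Kif3b is a transport kinesin with an NF-Y box, at position -69, and no CHR.
Kif11, chr19:37376262-37376381 (+): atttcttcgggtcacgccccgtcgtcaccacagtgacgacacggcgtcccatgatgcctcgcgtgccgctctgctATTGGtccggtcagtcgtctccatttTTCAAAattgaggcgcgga
Kif18a, chr2:109280618-109280737 (+): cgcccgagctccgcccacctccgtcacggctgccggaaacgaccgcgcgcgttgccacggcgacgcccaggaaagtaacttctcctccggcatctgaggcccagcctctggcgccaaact
Kif1c, chr11:70700428-70700547 (+): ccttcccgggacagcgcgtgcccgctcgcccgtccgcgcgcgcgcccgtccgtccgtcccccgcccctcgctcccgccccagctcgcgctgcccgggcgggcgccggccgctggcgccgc
Kif3b, chr2:153291296-153291415 (+): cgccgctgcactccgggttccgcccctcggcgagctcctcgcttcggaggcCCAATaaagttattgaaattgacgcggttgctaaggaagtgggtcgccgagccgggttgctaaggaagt

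**Figure D1:**
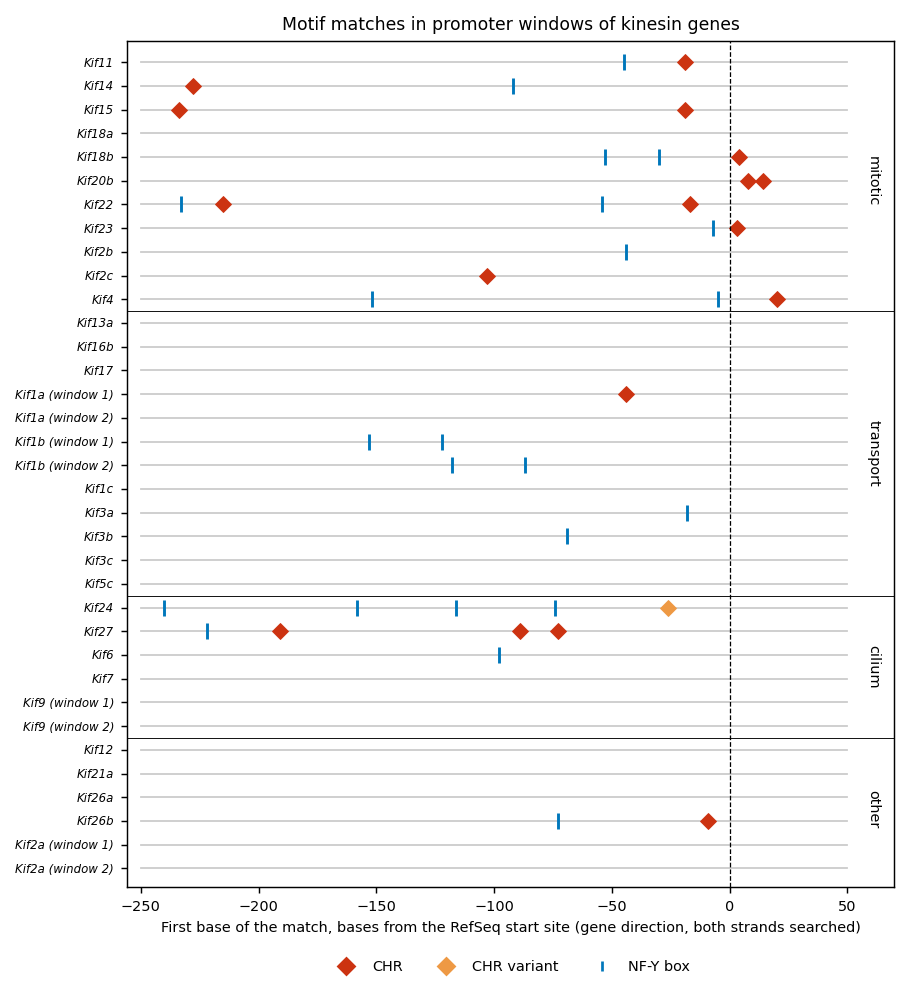
Positions of CHR, CHR variant and NF-Y box matches, in bases from the RefSeq start site, in the promoter windows of kinesin genes grouped by role; each grey line is 1 window. CHR matches lie in 9 of the 10 windows of tested mitotic kinesins (Kif2b, also drawn, was not tested) and in 1 of 12 transport windows.

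In proliferating control cells the 38 genes together took 2048 ± 116 CPM (SD, n = 3). The mitotic kinesins made up 18.1%, 25.3% and 28.3% of that sum in experiments 5, 7 and 9, and the transport kinesins 72.8%, 66.4% and 63.2%. In quiescent control cells the sum was 1925 ± 47.6 CPM (SD, n = 3). Per library the sums of the 2 groups overlapped, at 1918 to 2143 and 1883 to 1977 CPM. The mitotic share in quiescent control cells was 1.33%, 1.86% and 2.5%. The summed mitotic level went from 487.9 ± 96 to 36.41 ± 10.9 CPM (SD, n = 3 each), and the summed transport level from 1383 ± 155 to 1724 ± 63.2 CPM (SD, n = 3 each). The groups did not overlap in either the mitotic or the transport sum.

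Levels of different genes were compared per kilobase of the longest coding transcript in GENCODE M21. In proliferating control cells Kif1c, a motor for vesicles and mRNA, was highest at 109 ± 13.6 CPM per kb (SD, n = 3). Kif5b, a heavy chain of conventional kinesin, followed at 63.5 ± 9.97, and Kif23, a subunit of the centralspindlin complex of cytokinesis, at 35.1 ± 7.02 CPM per kb (SD, n = 3 each). Kif3a, at 29.0 ± 1.88, and Kif2a, a microtubule depolymerase, at 26.2 ± 5.67 CPM per kb (SD, n = 3 each), overlapped each other and Kif23 within their spread. With all exons of a gene joined as its length, 3 of these 5 were still among the highest 5. In quiescent control cells Kif1c stood at 126 and Kif5b at 75.7 CPM per kb, while Kif23 was at 4.78.

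All 11 tested mitotic kinesins fell in quiescent control cells (edgeR quasi-likelihood test, 4 groups fitted together, adjusted p under 0.05 over all tested genes). Of all tested genes, 11.7% were called lower in this comparison and 8.33% higher. The count of 11 depends on roles assigned by hand. Kif2a, which also acts at the spindle, was placed under other roles and was not called in this fit (log2 fold change -0.52, edgeR adjusted p = 0.0789). The median log2 fold change of the mitotic kinesins was -4.49, and that of all tested genes was 0. For each of the 11, every quiescent control library lay below every proliferating control library, as was so for 2300 of all 12406 tested genes. The medians within experiments 5, 7 and 9 were -5.31, -4.63 and -3.74 on the log2 CPM scale, so the fall was present in each experiment and differed in size between them. In bulk RNA, fewer cycling cells and less RNA per cycling cell cannot be told apart. That all these genes fell was known before the promoter letters were searched.

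Both motors that push the spindle poles apart fell. Kif15 (chr9:122951046-123018733, build mm10), which holds the bipolar spindle together with Eg5, was at 19.7, 30.3 and 20.2 CPM in proliferating control cells of experiments 5, 7 and 9 and at 0.345, 0.734 and 0.835 CPM in quiescent control cells. Its log2 fold change was -5.17 ± 0.56 (SE; adjusted p = 0.000177 by edgeR), and 2.73% of the proliferating mean remained. Kif11 (chr19:37376403-37421859), which encodes Eg5 itself, went from 49.3, 72.7 and 79.7 to 0.69, 2.33 and 5.84 CPM. The log2 fold change of Kif11, the median of the 11, was -4.49 ± 0.76 (SE; adjusted p = 0.00227 by edgeR). In both states its level was lowest in experiment 5 and highest in experiment 9.

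The chromokinesins Kif4 and Kif22, the depolymerase Kif2c and its partner Kif18b fell as well. Kif4 (chrX:100625737-100727214), the chromokinesin of chromosome arms and the central spindle, was at 26.3, 36.1 and 33 CPM in proliferating control cells and at 0, 1.35 and 1.49 CPM in quiescent control cells. It had no count in the quiescent control library of experiment 5, and its log2 fold change was -5.03 ± 0.81 (SE; adjusted p = 0.00179 by edgeR). Kif22 (chr7:127027729-127042471), the chromokinesin Kid, went from 25.9, 33.4 and 37.4 to 0.966, 1.77 and 3.1 CPM. Kif2c (chr4:117159639-117182639), the centromeric depolymerase MCAK, went from 15.4, 24.1 and 23.2 to 0.276, 0.795 and 1.37 CPM. Kif18b (chr11:102905529-102925124), which shortens astral microtubules with MCAK, went from 27.4, 40.1 and 49.3 to 0.345, 0.979 and 2.44 CPM. These 3 had log2 fold changes of -4.03 ± 0.56, -4.65 ± 0.68 and -4.92 ± 0.76 (SE).

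Among the motors of cytokinesis the residual level differed by gene. Kif14 (chr1:136466343-136531511), a midbody motor, fell to 2.91% of its proliferating mean, from 13.6, 18.6 and 19.7 to 0.069, 0.428 and 1.01 CPM, the last values resting on 1, 7 and 17 counts. Kif20a, the MKLP2 motor that brings the chromosomal passenger complex to the midzone, went from 63.9, 86.1 and 82 to 2.48, 4.16 and 6.2 CPM and kept 5.54%. Kif20b (chr19:34922361-34975745), the cytokinesis motor MPP1, went from 35.3, 52.8 and 56.8 to 3.66, 5.51 and 6.74 CPM and kept 11%. Kif23 (chr9:61915905-61946774) kept 13.6%, from 92.5, 138 and 127 to 16.3, 15.6 and 16.8 CPM, with a log2 fold change of -2.88 ± 0.27 (SE; adjusted p = 7.96e-05 by edgeR).

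The smallest fall was that of Kif18a (chr2:109280738-109341747), which damps the oscillation of chromosomes at metaphase. It went from 7.74, 10.7 and 14.9 to 1.17, 1.35 and 2.09 CPM, a log2 fold change of -2.85 ± 0.46 (SE; adjusted p = 0.00186 by edgeR). Kif18a and Kif23, the 2 with the smallest falls, thus kept 13.8% and 13.6% of their level. Kif18a is also the tested mitotic kinesin with a window that lacks the CHR letters, whereas Kif23 has them at position 3. Whether the size of the fall goes with the letters cannot be read from 1 gene without them.

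**Figure D2:**
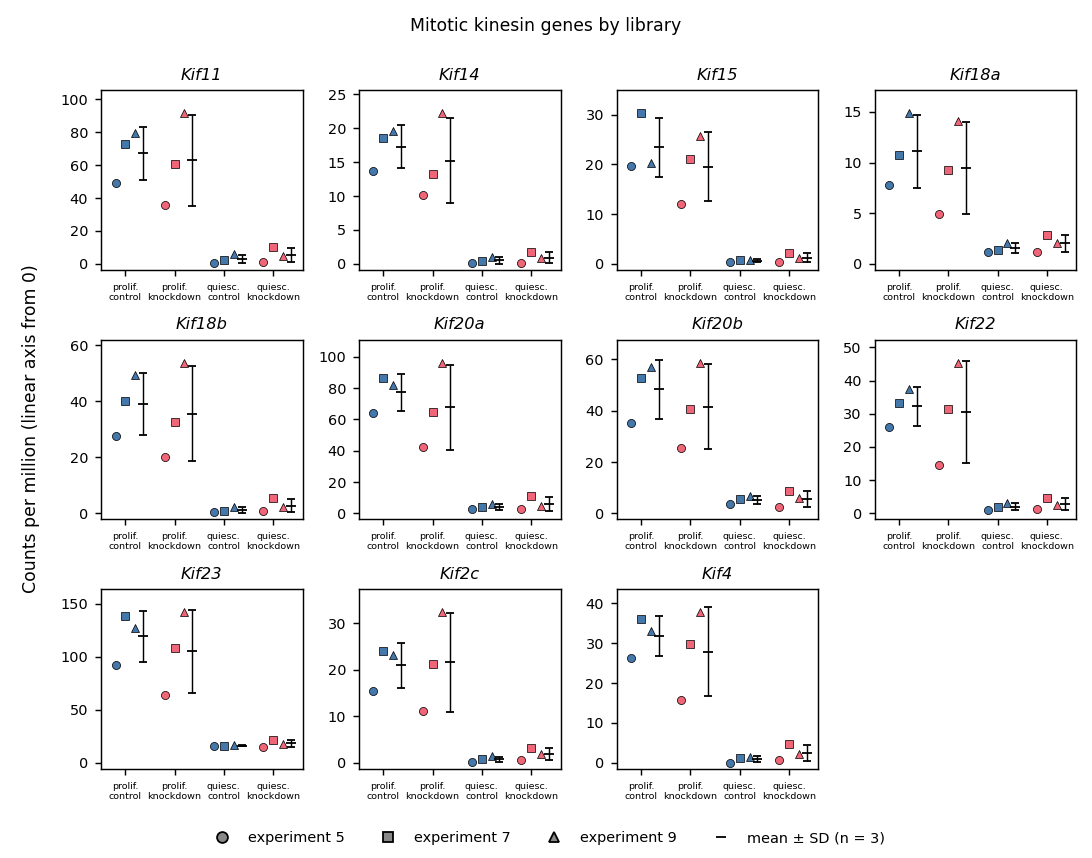
Levels of the 11 tested mitotic kinesins in CPM on linear axes from 0, by group, with 1 point per library (marker shape: experiment) and the mean ± SD of 3 libraries. In every panel the 6 quiescent libraries lie below the 6 proliferating libraries.

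Transport kinesins differed far less between the states, and those called were higher. In quiescent control cells 5 of 13 rose and 0 fell, with a median log2 fold change of 0.40, against 8.33% called higher across the table. With the experiment as a replicate block 6 rose, against 16.8% of all genes called higher and 18.5% lower in that fit. The gene added by the block was Kif1a, described further on. Leaving out each of the 12 libraries in turn gave 2 to 5 calls, with 2 when the proliferating control library of experiment 7 was left out and 3 when that of experiment 9 or any 1 of the quiescent control libraries was. Kif13b and Kif3c kept their calls in each case, whereas Kif16b, Kif1b and Kif3a lost theirs in 5, 4 and 2 of the 12 omissions.

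Kif13b, a motor of membrane cargo also known as GAKIN, rose most among the called transport kinesins. It was at 41.1, 34.9 and 19.4 CPM in proliferating control cells of experiments 5, 7 and 9 and at 79.8, 83.8 and 58.3 CPM in quiescent control cells. Its log2 fold change was 1.22 ± 0.25 (SE; adjusted p = 0.00713 by edgeR). The groups did not overlap, and experiment 9 was lowest in both.

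Of the kinesin-2 motors, which work as heterotrimers in transport and in building cilia, Kif3a and Kif3c rose. Kif3a (chr11:53567379-53601967) went from 66.4, 58.5 and 64.6 to 80.5, 80.2 and 88.8 CPM, a log2 fold change of 0.40 ± 0.10 (SE; adjusted p = 0.0163 by edgeR). Kif3c (chr12:3365132-3406494) went from 53, 39.2 and 38.9 to 74, 65.6 and 63 CPM, a log2 fold change of 0.63 ± 0.14 (SE; adjusted p = 0.00955 by edgeR). Kif3b, the usual partner of Kif3a, was at 85.6, 85.1 and 88.4 CPM against 105, 106 and 98 CPM, groups that did not overlap, but did not pass (log2 fold change 0.25 ± 0.11, SE; adjusted p = 0.111 by edgeR). Kif17, the homodimeric kinesin-2, was at 9.71, 7.68 and 6.25 CPM in proliferating and 5.31, 11.4 and 4.53 CPM in quiescent control cells.

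In the kinesin-3 family, whose members carry vesicles and endosomes, Kif1b and Kif16b rose. Kif1b (chr4:149176319-149307693), a motor for vesicles and mitochondria, went from 96.2, 87.9 and 75.2 to 133, 144 and 115 CPM, a log2 fold change of 0.60 ± 0.16 (SE; adjusted p = 0.0247 by edgeR). Kif16b (chr2:142617474-142901531), a motor of early endosomes, went from 71.1, 69.7 and 54.3 to 91.4, 93.7 and 84 CPM, a log2 fold change of 0.46 ± 0.13 (SE; adjusted p = 0.0325 by edgeR). The call of Kif16b was lost without a filter on low counts (adjusted p = 0.051). Kif13a, which works in endosomal recycling, was at 57.2, 51 and 52.6 against 49, 55 and 47.8 CPM.

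Kif1c and Kif5b, the most abundant of the family, did not pass the test. Kif1c (chr11:70700548-70731964) was at 621, 542 and 484 CPM in proliferating and 636, 605 and 668 CPM in quiescent control cells, a log2 fold change of 0.21 ± 0.13 (SE; adjusted p = 0.249 by edgeR). Kif5b was at 393, 437 and 318 CPM against 519, 417 and 433 CPM, and for both genes the groups overlapped. The other conventional heavy chains were far lower, Kif5c at 5.4 to 17.4 CPM in control cells of either state and Kif5a below 1 CPM in all libraries.

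Kif1a, the motor of synaptic vesicle precursors, was highest in experiment 9 in both states. It was at 3.76, 0.808 and 5.4 CPM in proliferating and 7.11, 7.04 and 22.9 CPM in quiescent control cells, where the groups did not overlap. Its log2 fold change of 1.89 ± 1.01 (SE) did not pass in the unblocked edgeR fit (adjusted p = 0.209). With the replicate block it was 1.91 ± 0.55 (SE) and passed (adjusted p = 0.021).

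**Figure D3:**
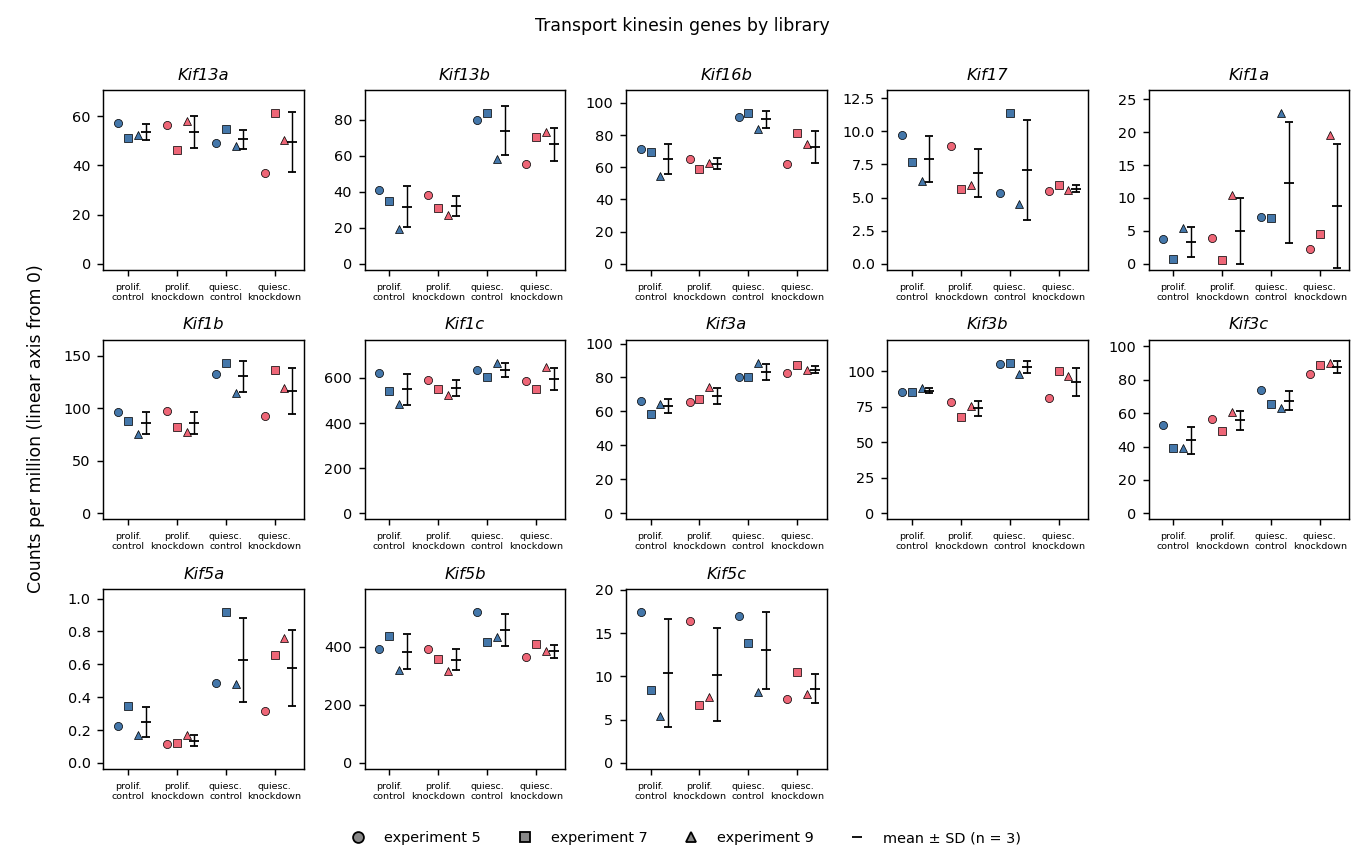
Levels of the 13 transport kinesins in CPM on linear axes from 0, by group, with 1 point per library (marker shape: experiment) and the mean ± SD of 3 libraries. Kif13b, Kif3a and Kif3c stand higher in all 6 quiescent libraries than in all 6 proliferating ones, and Kif1a is highest in experiment 9 in each group.

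Kinesins of cilia and of other roles split. Kif24, which acts in centriole and cilium assembly, fell in quiescent control cells from 8.13, 10 and 9.6 to 3.24, 2.88 and 1.97 CPM, a log2 fold change of -1.78 ± 0.37 (SE; adjusted p = 0.00658 by edgeR). Its promoter window holds no TTTGAA but holds TTCGAA, a known CHR variant that reads the same on both strands and is in 1.56% of all windows, together with 4 NF-Y boxes. Among the kinesins of cilia and other roles, the full CHR letters were in the windows of Kif27, with 3 matches, and Kif26b, with 1 at position -9. Neither of these was called, with log2 fold changes of 0.37 ± 0.31 and 0.08 ± 1.08 (SE) in control cells. The stretch around the variant in Kif24 is printed with its letters in capitals.
Kif24, chr4:41464857-41464886 (-), position -26, CHR variant in capitals: tcggcgcgcgcgTTCGAActggcgcttgtg

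Kif6, a kinesin-9 of motile cilia, rose from 1.07, 1.04 and 0.455 to 2.76, 3.67 and 2.33 CPM, a log2 fold change of 1.77 ± 0.40 (SE; adjusted p = 0.0112 by edgeR). These values rest on 8 to 60 counts per library. Kif9, Kif27, Kif19a and Kif7 did not pass; Kif7, which acts at the ciliary tip in Hedgehog signalling, had a log2 fold change of -0.77 ± 0.34 (SE) and Kif9 one of 0.51 ± 0.22 (SE).

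Kif2a, a microtubule depolymerase of neurons and the spindle, was at 74, 77.6 and 50.7 CPM in proliferating and 51.1, 53.5 and 36.7 CPM in quiescent control cells. The groups overlapped because experiment 9 was low in both, yet the difference within each experiment was -0.53, -0.53 and -0.47 on the log2 CPM scale. Without the block its log2 fold change was -0.52 ± 0.19 (SE; adjusted p = 0.0789 by edgeR), and with the block -0.51 ± 0.11 (SE; adjusted p = 0.00411). Kif12, Kif21a, Kif21b, Kif26a and Kif26b did not pass in either fit.

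In knockdown cells, too, all 11 mitotic kinesins fell with quiescence, with a median log2 fold change of -3.52 and a range from -4.06 (Kif14) to -2.22 (Kif18a), against 10.8% of genes called lower and 7.59% higher. The medians in experiments 5, 7 and 9 were -4.09, -2.58 and -4.05 on the log2 CPM scale, the smallest in experiment 7. Kif11 was at 36, 60.9 and 91.8 CPM in proliferating and 1.31, 10.1 and 4.51 CPM in quiescent knockdown cells, and Kif15 at 11.9, 21 and 25.7 against 0.408, 2.15 and 1.11 CPM. No quiescent knockdown library reached the lowest proliferating one for any of the 11. Of all 12406 tested genes, 2366 likewise had every quiescent knockdown library below every proliferating knockdown library.

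Among transport kinesins 3 of 13 rose in quiescent knockdown cells and 0 fell, against 7.59% of all genes called higher and 10.8% lower. Kif13b was at 38.3, 31 and 27.3 CPM in proliferating and 55.7, 70.2 and 73.1 CPM in quiescent knockdown cells (log2 fold change 1.04 ± 0.25, SE; adjusted p = 0.0165 by edgeR). Kif3c went from 56.8, 49.4 and 60.7 to 83.3, 89.1 and 90.3 CPM (log2 fold change 0.66 ± 0.14, SE; adjusted p = 0.00825 by edgeR). Kif5a, a neuronal conventional heavy chain, went from 0.117, 0.119 and 0.172 to 0.317, 0.656 and 0.762 CPM, which is 2 to 3 against 7 to 13 counts, and its call (adjusted p = 0.0323) was lost in DESeq2 (adjusted p = 0.0632) and without the filter on low counts (adjusted p = 0.0547).

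The replicate block raised the transport count in knockdown cells to 6 of 13, against 15.9% of all genes called higher and 17.2% lower in that fit. It added Kif1b (log2 fold change 0.44, adjusted p = 0.0427), Kif3a (0.29, adjusted p = 0.0307) and Kif3b (0.32, adjusted p = 0.0376). Leaving out 1 library gave 1 to 5 calls. The count was 1 without the proliferating knockdown library of experiment 7 or 9 or the quiescent knockdown library of experiment 9, in each of which Kif13b and Kif5a lost their calls, and 5 without the quiescent knockdown library of experiment 5, where Kif1b (93 CPM) and Kif3b (81.5 CPM) were lowest of their group.

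Kif6 rose in knockdown cells too, from 1.05, 1.19 and 0.689 to 4.35, 6.5 and 3.75 CPM (log2 fold change 2.31 ± 0.40, SE; adjusted p = 0.00312 by edgeR). Kif24 was at 7.4, 7.33 and 12.4 CPM in proliferating and 3.17, 7.16 and 3.16 CPM in quiescent knockdown cells. Its log2 fold change of -1.01 ± 0.35 (SE) did not pass (edgeR adjusted p = 0.0711), and with the replicate block it was -1.06 and passed (adjusted p = 0.0335). The quiescent library of experiment 7 was the high one. Kif2a had a log2 fold change of -0.48 ± 0.19 (SE; adjusted p = 0.104 by edgeR), and passed with the block at -0.48 ± 0.10 (SE; adjusted p = 0.00623).

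**Figure D4:**
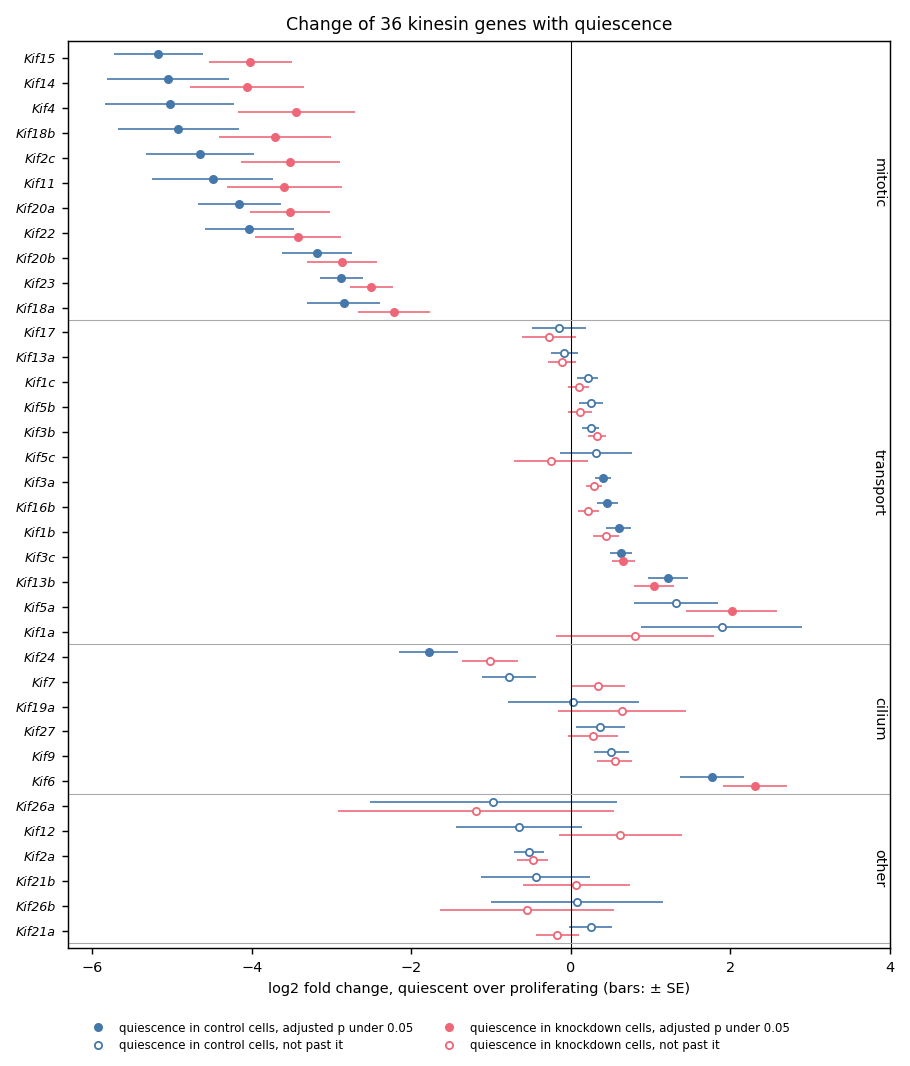
Log2 fold change, quiescent over proliferating, of the 36 tested kinesin genes in control (blue) and knockdown (red) cells, grouped by role; bars are ± SE and filled points have an edgeR adjusted p under 0.05. The 11 mitotic kinesins lie between -5.17 and -2.22, and the called transport kinesins lie above 0.

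Knockdown of Stag2 in proliferating cells changed no kinesin by the test, with 0 of 36 called, against 0.0242% of all genes (3 genes) called in either direction. The replicate block also gave 0 of 36, and 0.0242% of the table. An unadjusted p under 0.05 was found for 228 of 12406 genes and for 1 kinesin, Kif3c, at 53, 39.2 and 38.9 CPM in control and 56.8, 49.4 and 60.7 CPM in knockdown cells (log2 fold change 0.35 ± 0.14, SE; adjusted p = 1 by edgeR). DESeq2 also called 0 of 36. For the mitotic kinesins the median log2 fold change was -0.18, with -0.52, -0.3 and 0.2 within experiments 5, 7 and 9, so the experiments did not share a direction. For Kif23 the difference was -0.18 ± 0.25 (SE) and for Kif11 -0.10 ± 0.63 (SE), an error that leaves room for a change of either sign. Kif3b was at 78.2, 67.8 and 75.6 CPM in knockdown cells, below all 3 control libraries, with a log2 fold change of -0.23 ± 0.11 (SE; adjusted p = 1 by edgeR).

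In quiescent cells knockdown likewise called 0 of 36 kinesins, against 0.435% of all genes called in either direction. DESeq2 called 0 too. An unadjusted p under 0.05 was found for 4 of 36 kinesins and for 1489 of 12406 genes, so the 4 do not stand out from the table. For the mitotic kinesins the median log2 fold change was 0.81, ranging from 0.09 (Kif20b) to 1.40 (Kif4), and all 11 estimates were above 0, but none passed. The medians were 0.36 in experiment 5, 1.41 in experiment 7 and -0.13 in experiment 9. All 11 were higher in the knockdown library in experiment 7, and only Kif15, Kif2c and Kif4 were higher in all 3 experiments. Of all 12406 tested genes, 6508 had an estimate above 0, 6467 were higher in experiment 7 and 3150 were higher in all 3 experiments. The quiescent knockdown library of experiment 7 stood above the other 2 of its group in mitotic level, with 76.6 CPM against 26.9 and 46 CPM, and its mitotic share was 4.12% of the kinesin sum against 1.62% and 2.45%.

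Kif4, with the highest estimate, was at 0, 1.35 and 1.49 CPM in quiescent control and 0.725, 4.71 and 2.34 CPM in quiescent knockdown cells, so that the groups overlapped, and its log2 fold change was 1.40 ± 0.79 (SE; adjusted p = 0.539 by edgeR). Kif2c was at 0.276, 0.795 and 1.37 against 0.544, 3.28 and 1.88 CPM (1.17 ± 0.67, SE; adjusted p = 0.54 by edgeR). Kif23, the most abundant mitotic kinesin that remained, was at 16.3, 15.6 and 16.8 against 15.4, 22 and 18.2 CPM (0.19 ± 0.26, SE; adjusted p = 0.846 by edgeR). Even with knockdown every mitotic kinesin stayed below its level in any proliferating library.

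**Figure D5:**
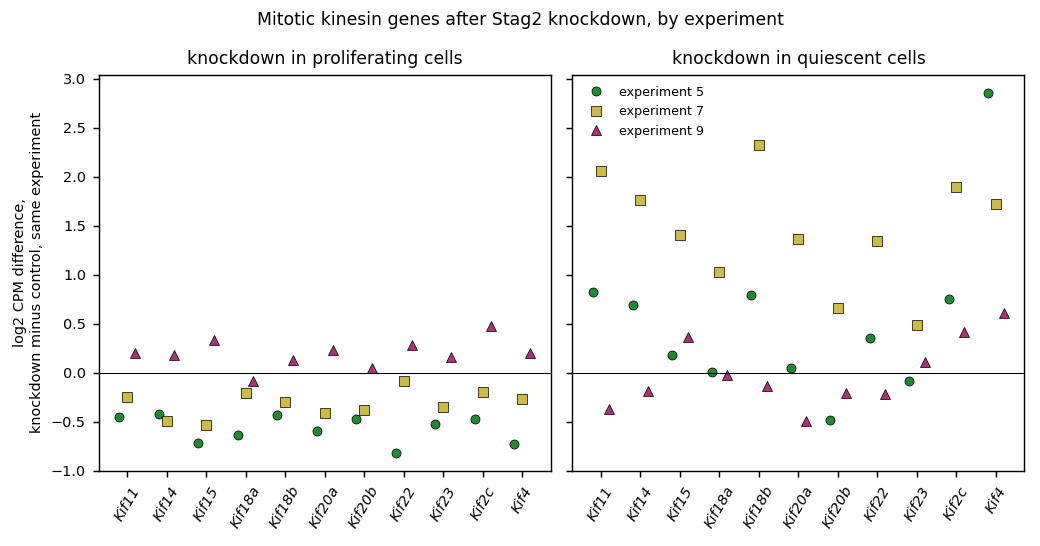
Difference in log2 CPM, knockdown minus control, of the 11 tested mitotic kinesins within each experiment, in proliferating (left) and quiescent (right) cells; each point is 1 pair of libraries. In quiescent cells all 11 points of experiment 7 lie above 0, and the median of experiment 9 is -0.13.

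The difference of the knockdown effect between the states, tested as an interaction, passed for 0 of 36 kinesins and for 0% of all tested genes, with and without the replicate block. An unadjusted edgeR p under 0.05 was found for 1 of 36, Kif7, and for 219 of 12406 genes, and DESeq2 called 0 of 36. The median interaction of the mitotic kinesins was 0.90 on the log2 scale, and within experiments 5, 7 and 9 it was 1.11, 1.94 and -0.25.

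Kif12, an epithelial kinesin of kidney and liver, gave the 1 knockdown call that depended on the block. It was at 11.2, 5.57 and 2.03 CPM in quiescent control cells of experiments 5, 7 and 9 and at 35.9, 12.9 and 16.1 CPM in quiescent knockdown cells. Each knockdown library lay above its partner and above all 3 control libraries. Of all 12406 tested genes, 1270 likewise had every knockdown library above every control library. The log2 fold change of Kif12 was 1.79 ± 0.80 (SE; adjusted p = 0.409 by edgeR) without the block and 2.01 ± 0.47 (SE; adjusted p = 0.0439) with it, a fit in which 3.55% of all genes were called. In proliferating cells Kif12 was at 17.1, 11.1 and 1.31 CPM in control and 19.4, 15.9 and 7.06 CPM in knockdown cells, and did not pass in either fit.

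The other members with an unadjusted p under 0.05 in quiescent knockdown cells were Kif7, Kif3c and Kif16b. Kif7 was at 0.897, 1.96 and 1.37 CPM in control and 2.04, 3.46 and 3.34 CPM in knockdown cells (log2 fold change 1.05 ± 0.34, SE; adjusted p = 0.234 by edgeR). It was higher in 3 of 3 experiments, as were 3150 of all 12406 tested genes. Kif3c was at 74, 65.6 and 63 against 83.3, 89.1 and 90.3 CPM (0.37 ± 0.14, SE; adjusted p = 0.306 by edgeR). Kif16b was lower, at 91.4, 93.7 and 84 against 61.7, 81.3 and 74.4 CPM (-0.31 ± 0.13, SE; adjusted p = 0.391 by edgeR). None of the 3 passed with the replicate block, where the adjusted p of Kif7 was 0.074.

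Kinesins whose symbols do not begin with Kif and a number are given beside them. Cenpe, the kinetochore motor that brings chromosomes to the metaphase plate, fell from 50.3, 66.4 and 67.7 to 1.59, 2.57 and 6.02 CPM in control cells (log2 fold change -4.16 ± 0.64, SE; adjusted p = 0.00131 by edgeR). Kifc1, a minus-end motor that focuses spindle poles, also fell (log2 fold change -3.01 ± 0.31, SE), with the reserve that its near-identical copy Kifc5b may share its reads. Kifc3, a minus-end motor of epithelial junctions, was at 149, 162 and 88.1 against 227, 242 and 193 CPM. Its log2 fold change was 0.73 ± 0.24 (SE; adjusted p = 0.0532 by edgeR), and with the replicate block it was 0.77 (adjusted p = 0.00113). Kifc2 was at 5.67, 2.77 and 1.99 against 8.56, 8.81 and 5.01 CPM, in groups that overlapped. The log2 fold change of Kifc2 was 1.10 ± 0.41 (SE; adjusted p = 0.0811 by edgeR), and with the block it was 1.16 (adjusted p = 0.0118).

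Partners of the mitotic kinesins, a list of 16 spindle and cytokinesis genes, fell in 16 of 16 cases in control cells (median log2 fold change -3.94) and in 16 of 16 in knockdown cells (-3.24). Of all tested genes, 11.7% were called lower in control cells and 10.8% in knockdown cells. Cdca8, a subunit of the chromosomal passenger complex that Kif20a carries, had a log2 fold change of -3.63 ± 0.38, Cdk1, the kinase that drives entry into mitosis, -3.95 ± 0.45, and Incenp, another passenger subunit, -2.16 ± 0.26 in control cells (SE). Neither knockdown comparison called any of the 16, against 0.0242% of all genes in proliferating and 0.435% in quiescent cells.

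Partners of the transport kinesins, 17 light chains, adaptors and cargo receptors, rose in 3 cases in control cells and fell in 0, with a median log2 fold change of 0.38, against 8.33% of all genes called higher. The 3 were Klc2, a kinesin light chain (0.60 ± 0.09), Plekhm2, which links kinesin-1 to lysosomes (0.64 ± 0.12), and Fyco1, an adaptor of late endosomes and autophagosomes (0.89 ± 0.25, SE each). With the replicate block 10 of 17 rose, against 16.8% of all genes. In knockdown cells 2 rose, against 7.59% of all genes, and 7 with the block, against 15.9%. Klc2 was also higher with knockdown in quiescent cells, at 96, 91.4 and 94.9 against 75.8, 73.2 and 68.5 CPM, a difference that passed only with the block (0.38, adjusted p = 0.04).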

How the data were processed

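Poly(A)+ RNA of 12 libraries was sequenced with a stranded kit, per the labels' protocols. The deposited table gives the authors' read counts by gene symbol, as whole numbers that were not normalized. Bowtie, TopHat, HTSeq, DESeq2 and build mm10 are named in the submitters' processing notes. Which annotation was counted, and whether by strand, is not given in the sources used here, so reads of overlapping, antisense or near-identical genes may be shared. No spike-in scaling was made.

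The genes and gene lists were chosen with earlier results of these data known, and roles were assigned by hand from general knowledge. The tool was edgeR 4.0.16 under R 4.3.3. After filterByExpr (minimum count 10) and TMM scaling, counts were fitted as 4 group means over 12 libraries with glmQLFit and glmQLFTest. P-values were Benjamini-Hochberg adjusted over 12406 genes, with a threshold of 0.05, and "called", "rose", "fell" and "passed" refer to it. CPM uses TMM-scaled totals, and log2 CPM a prior count of 2. The fit was tested on simulated data. Every kinesin could be named, with per-library values for those called in any comparison, with or without the replicate block, and for the 3 most abundant transport kinesins, and of each partner list at most the 3 with the smallest p. Per-library values of Kif7, Kif13a, Kif17, Kif26a and Kif26b, called in no fit, were added after they had been seen.

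The experiment number is shared by 1 library of each group and coincides with the batch in the labels, which is where the pairing comes from. Deviations from group means correlated at 0.225 to 0.789 in all 18 same-experiment pairs (mean 0.526) and at -0.259 on average otherwise. Because each group's mean was subtracted, the negative average largely follows from the positive one and is no separate evidence of pairing. A fit with this replicate block is given where it changed the call of a kinesin whose symbol begins with Kif and a number. For counts it is given where they changed by more than 1.5 times, among these kinesins, the partner lists and dynein and dynactin. The smallest chi-square per degree of freedom between replicates was 36.6, so none is a repeated library. The labels do not say beyond the experiment number whether cultures were separate, so p-values measure the spread between these libraries. Floors of 3 counts cover counting error only. Alternatives were the block, other size factors, DESeq2 1.42.0, no filter or a mean count of at least 50, only the 6 libraries of a contrast, each library left out, and a prior count of 0.5. Coordinates and lengths are from GENCODE M21 (mm10), and promoter windows are RefSeq's, read with Python 3.11.15.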

Additional observations from a re-analysis of the deposited data

How the results depend on the processing

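None of the 41 log2 fold changes refitted (those called with or without the replicate block) changed direction, and the calls of the 11 mitotic kinesins in both quiescence comparisons held in all 18 refits: DESeq2, size factors by median of ratios, the replicate block, no low-count filter, a minimum mean count of 50, only the 6 libraries of a contrast, and each of 12 libraries left out. The transport, cilium and other classes were less settled, and beyond fewer genes or samples the cause was not tested. With the replicate block, transport kinesins called higher in quiescent knockdown cells numbered 6, cilium and other kinesins called lower 2 in control and 2 in knockdown cells, and cilium and other kinesins called higher after knockdown in quiescent cells 1 (Kif12). The block changed no kinesin call other than those given above. DESeq2 gave 5 transport kinesins higher in quiescent knockdown cells, and cilium and other kinesins lower in 2 cases in control and 1 in knockdown cells. With a mean count of at least 50, Kif6 was not tested and cilium and other kinesins called higher numbered 0 in control and 0 in knockdown cells. With only 6 libraries in the fit, 3 transport kinesins rose in control cells. Leaving out 1 library, the median log2 fold change of transport kinesins in control cells ran from 0.35 to 0.53 (without the proliferating control library of experiment 5), their calls from 2 to 5 in control and 1 to 5 in knockdown cells, and cilium and other kinesins called lower from 1 to 2 in control and 0 to 1 in knockdown cells. Kif2a was added in control cells without the proliferating library of experiment 9, and Kif24 in knockdown cells without the quiescent library of experiment 7. The order of levels per kilobase depends on the gene model: the coding transcript of Kif3a used here has almost no untranslated sequence. Kinesins under 1 CPM rest on few counts.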

Other observations

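Cytoplasmic dynein and dynactin, the machinery that moves cargo towards the minus ends of microtubules, was measured as a counterpart to the kinesins, with 19 of 21 listed genes tested. In quiescent control cells 2 rose and 1 fell, with a median log2 fold change of 0.26, against 8.33% of all genes called higher and 11.7% lower. In quiescent knockdown cells 0 rose and 1 fell, against 7.59% higher and 10.8% lower, so these counts are near or under those of the whole table. With the replicate block 4 rose and 1 fell in control cells, against 16.8% of all genes called higher and 18.5% lower. In knockdown cells the block gave 3 higher and 2 lower, against 15.9% and 17.2% of all genes. Dync1li2, a light intermediate chain, went from 179, 158 and 145 to 277, 226 and 251 CPM in control cells (log2 fold change 0.65 ± 0.13, SE; adjusted p = 0.0059 by edgeR). Dync1h1, the heavy chain, had a log2 fold change of 0.53 ± 0.17 (SE; adjusted p = 0.0497 by edgeR). Nde1, which regulates dynein and is also used at the mitotic spindle, fell from 87.5, 85.6 and 82.5 to 66.3, 54 and 63.3 CPM (log2 fold change -0.48 ± 0.12, SE; adjusted p = 0.0204 by edgeR). Neither knockdown comparison called a gene of this list, against 0.0242% of all genes in proliferating and 0.435% in quiescent cells.

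Some kinesins of low abundance followed the experiment in every group. Kif26a, a non-motile kinesin, was at 3.98, 1.72, 1.85 and 0.644 CPM in the 4 libraries of experiment 9 and at no more than 0.224 CPM in the other 8. Kif1a was highest in experiment 9 in each of the 4 groups, at 5.4, 10.4, 22.9 and 19.6 CPM. Kif26b, by contrast, was highest in experiment 5 in proliferating cells (4.82 CPM in control and 5.19 CPM in knockdown) and in experiment 7 in quiescent cells (4.96 and 3.64 CPM).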
